A study of Mus musculus with 3 samples.

Results

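The 40 genes described here were those of glucose uptake, glycolysis, lactate export and the response to the hypoxia-inducible factor HIF-1, listed by name for their place in these pathways, with no threshold on measured values. They were 40 of the 22238 genes that were listed for all 3 libraries of the study. The members and the further lists below were chosen with earlier results of these data known. The libraries came from female C57BL/6J mice aged 10 to 12 weeks with experimental autoimmune encephalomyelitis (EAE), a model of multiple sclerosis induced by immunization with a myelin oligodendrocyte glycoprotein (MOG) peptide in complete Freund's adjuvant and 250 ng of pertussis toxin. On days 14 to 15, cells were sorted from bone marrow and spinal cord, and each population gave 1 library. The title of each library carries the label WT, for wild type.

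Bone marrow monocytes were CD45+ CD11b+ Ly6Chi Ly6G- CD11c- cells pooled from 13 mice of 2 experiments. Spinal cord monocytes were CD45+ CD11b+ CD64+ Ly6Chi Ly6G- cells, and monocyte-derived antigen-presenting cells (APCs) were their Ly6Clow/- counterparts from the spinal cord, each pooled from 18 mice of 3 experiments. All 3 groups carried the same immunization, and no library of unimmunized mice was analysed here. The source field of the APC library names bone marrow, whereas its title and tissue field name the spinal cord, and it was taken as spinal cord. Spinal cord tissue was digested with collagenase D and DNase I for 30 minutes at 37 °C, whereas bone marrow was flushed from the bones and enriched for monocytes, so the tissue and the preparation of the cells cannot be told apart. Because each population was a bulk library, fewer cells of a type and less RNA per cell cannot be told apart either.

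Glycolysis splits glucose into pyruvate through a chain of cytosolic enzymes, and lactate dehydrogenase then converts pyruvate to lactate, which leaves the cell through monocarboxylate transporters. HIF-1 is a pair of an oxygen-labile alpha subunit and a constant partner, ARNT. Prolyl hydroxylases mark the alpha subunit for destruction when oxygen is present, and in hypoxia or in inflammatory activation of myeloid cells HIF-1 raises transcription of many glycolytic genes, of glucose and lactate transporters and of its own regulators.

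The common genes held 26116588 to 32115707 estimated reads per library, and 9345 to 9428 of them were over 3 TPM, the length-corrected share of transcripts, rescaled so that the common genes sum to the same total in each library. All 7 monocyte markers were over 3 TPM in every library, and their summed level was 8571 TPM in the bone marrow library, 6125 TPM in that of spinal cord monocytes and 3448 TPM in that of APCs. Where 3 values follow each other below, they are in this order of libraries. Ly6c2 alone was at 5205, 3602 and 1067 TPM. APCs were sorted for low or absent Ly6C, so the sort itself favours a lower sum in their library. Not all 7 markers fell, and Csf1r was at 374.2, 675.9 and 1134 TPM. Markers of other cell types also differed between the libraries. The 7 microglia markers summed to 13.8, 155 and 415 TPM respectively, with Sall1 at 0 reads in bone marrow, and the 8 endothelial markers to 17.5, 81.8 and 50.8 TPM, with Cldn5, Tek and Emcn at 0 reads in bone marrow. The 6 neutrophil markers summed to 995.5, 177.6 and 404.7 TPM. The 6 astrocyte markers summed to 4.17, 18.5 and 19.6 TPM, with Aqp4 and Slc1a2 at 0 reads in bone marrow. The 6 erythroid markers summed to 0.573, 77.8 and 24.9 TPM, with Hba-a1, Alas2 and Klf1 at 0 reads in bone marrow. The 6 T cell markers summed to 0.507, 36.1 and 51.8 TPM, the 5 markers of cycling cells to 508.8, 35.9 and 39.7 TPM, the 5 of oligodendrocytes to 73.2, 54.7 and 53.1 TPM, the 5 of conventional dendritic cells to 40.8, 20.7 and 25.1 TPM, and the 3 of B cells to under 1 TPM in each library. The part of these cells in the results below was not tested.

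The comparisons made were spinal cord monocytes over bone marrow monocytes and APCs over spinal cord monocytes, which share the spinal cord monocyte library. A gene was called higher or lower where the 98% counting interval of its log2 fold change lay wholly beyond a 2-fold change and its level was over 3 TPM in at least 1 of the libraries compared. With 1 library per population the differences have no replicate check, no p-value was computed, and the intervals cover counting error only.

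Most of the genes were at a higher level in spinal cord monocytes than in bone marrow monocytes, and between spinal cord monocytes and APCs none was called. Of the 40 genes, 21 were called higher in spinal cord monocytes and 0 were called lower, where 13.6% of the 10072 genes examined were called higher and 11.0% lower. The level filter passed 36 members, of which Aldoc and Egln3 passed only through spinal cord monocytes and Slc2a3 and Pfkm only through bone marrow monocytes. The median log2 fold change over those 36 was 1.40, beside −0.17 over all genes examined. Because the members were chosen with earlier results known, their differences from all genes are only a description. In the second comparison 35 members passed the filter and 0 were called in either direction, where 1.94% of 9734 genes were called higher and 1.66% lower (189 and 162 genes, and 232 and 324 per effective length). On the scale of reads per effective length, which corrects for the different transcript lengths of the libraries, 20 members were called higher and 0 lower in the first comparison, against 13.8% and 11.5% of all genes, and 0 higher and 1 lower in the second, against 2.38% and 3.33%. From reads, the median over the 35 was −0.15, beside −0.03 over all genes, and 27 of them (77.1%) lay within 0.5 of no change on the log2 scale, as did 76.0% of all genes examined. All 21 called genes had their lowest TPM in bone marrow monocytes. Their highest TPM was in spinal cord monocytes for 16 of them and in APCs for the other 5, Aldoa, Aldoc, Ldha, Egln3 and P4ha1. The call itself sets bone marrow monocytes below spinal cord monocytes and favours the latter as the highest library. These counts were not made over all called genes.

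**Figure D1:**
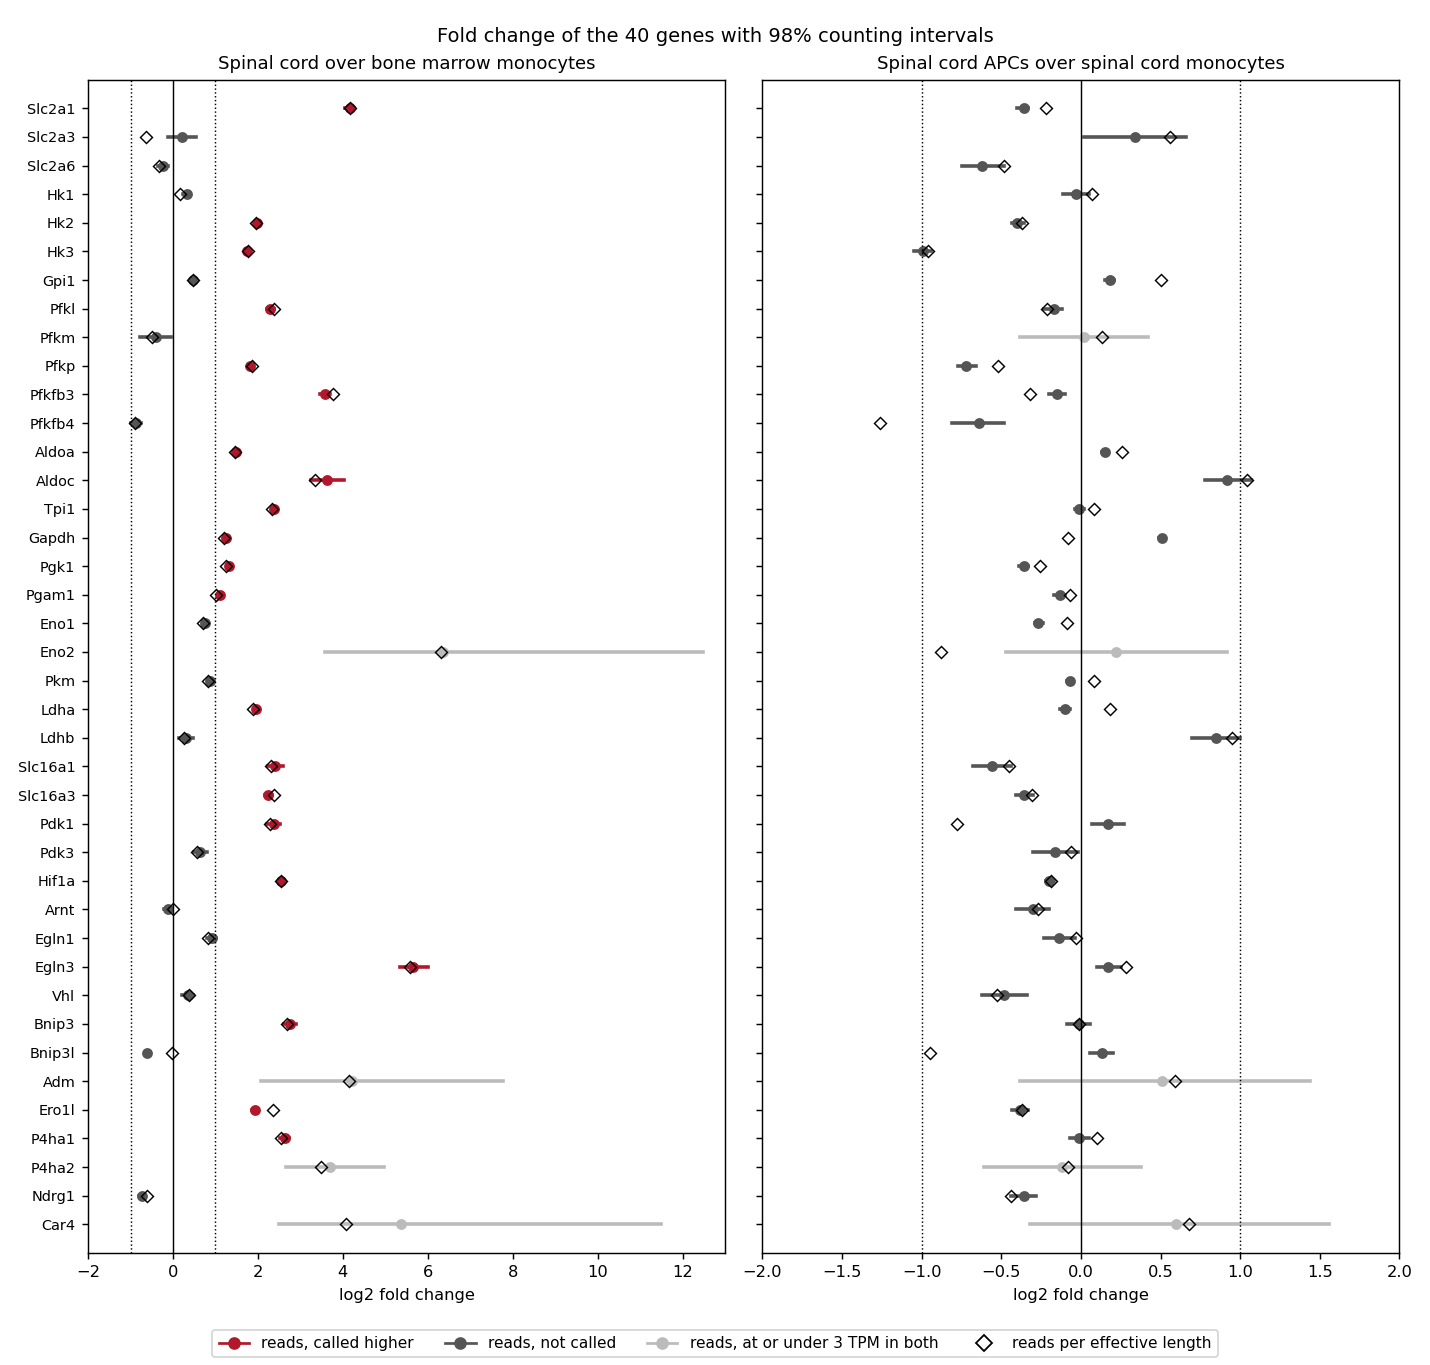
log2 fold change (x axis) of each of the 40 genes, ordered by role, for spinal cord monocytes over bone marrow monocytes (left) and APCs over spinal cord monocytes (right). Circles are medians from reads with 98% counting intervals as bars (red, called higher), diamonds are the same ratio per effective length, and dotted lines mark a 2-fold change: 21 genes are red on the left and 0 on the right.

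The 4 genes with the largest fold changes among those called were Egln3, Slc2a1, Aldoc and Pfkfb3, and they were also the 4 genes whose calls held in each of the 14 processing alternatives tried. For each, 1 RefSeq promoter on GRCm38.p6 is printed, from 250 bases before to 50 bases after the annotated start, 5′ to 3′ along the gene's strand. They show where the core letters of the hypoxia response element occur near these starts. Where a gene had more than 1 promoter, the one with most matches was taken. Aldoc and Pfkfb3 each had another promoter with 1 match, and that of Pfkfb3 held no CACGTG. The capitals mark the letters searched, ACGTG or GCGTG, or their reverse complements CACGT and CACGC. Egln3 is at chr12:54203825-54204124 on the minus strand, Slc2a1 at chr4:119108495-119108794 on the plus strand, Aldoc at chr11:78322823-78323122 on the plus strand and Pfkfb3 at chr2:11502041-11502340 on the minus strand. In GENCODE M21 annotation the genes span chr12:54178981-54203860 for Egln3 (ENSMUSG00000035105.5), chr4:119108711-119137983 for Slc2a1 (ENSMUSG00000028645.11), chr11:78322968-78327781 for Aldoc (ENSMUSG00000017390.15) and chr2:11471433-11554077 for Pfkfb3 (ENSMUSG00000026773.19).
Egln3 promoter: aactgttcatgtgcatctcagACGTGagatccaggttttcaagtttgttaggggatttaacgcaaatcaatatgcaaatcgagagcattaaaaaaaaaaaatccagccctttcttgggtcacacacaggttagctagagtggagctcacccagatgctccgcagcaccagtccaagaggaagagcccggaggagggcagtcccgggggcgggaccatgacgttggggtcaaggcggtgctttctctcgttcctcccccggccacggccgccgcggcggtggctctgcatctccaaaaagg
Slc2a1 promoter: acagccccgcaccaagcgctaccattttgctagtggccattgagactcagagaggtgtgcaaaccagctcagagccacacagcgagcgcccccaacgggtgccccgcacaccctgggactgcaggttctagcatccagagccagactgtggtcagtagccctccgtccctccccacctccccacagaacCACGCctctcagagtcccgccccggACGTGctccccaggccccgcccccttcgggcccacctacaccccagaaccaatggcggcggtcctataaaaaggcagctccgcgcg
Aldoc promoter: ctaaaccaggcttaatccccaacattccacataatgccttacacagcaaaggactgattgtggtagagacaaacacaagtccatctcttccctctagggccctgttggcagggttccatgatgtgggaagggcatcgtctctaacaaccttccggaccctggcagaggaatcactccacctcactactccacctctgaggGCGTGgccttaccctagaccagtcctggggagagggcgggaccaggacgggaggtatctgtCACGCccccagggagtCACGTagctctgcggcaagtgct
Pfkfb3 promoter: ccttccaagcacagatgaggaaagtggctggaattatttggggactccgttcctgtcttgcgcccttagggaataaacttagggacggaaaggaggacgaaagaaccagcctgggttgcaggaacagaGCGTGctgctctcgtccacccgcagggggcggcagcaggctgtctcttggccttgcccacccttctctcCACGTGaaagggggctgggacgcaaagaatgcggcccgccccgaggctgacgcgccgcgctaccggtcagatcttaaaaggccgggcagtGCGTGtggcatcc

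Egln3 held a single match, which began 229 bases before the start. Slc2a1 held 2 matches, 61 and 36 bases before the start. In Aldoc 1 of 3 matches lay before the start, at 50 bases, and the others 11 and 27 bases after it. Pfkfb3 held 4, of which the pair at 53 and 52 bases before the start is a single palindromic CACGTG read on both strands, the E-box bound by other basic helix-loop-helix factors as well. A promoter was found for 37 of the 40 genes, and not for Slc2a3, Bnip3l and Ndrg1. Taking for each gene the promoter with most matches, 33 of these 37 held at least 1 match, or 89.2%. The share was 20 of 21 among genes called higher, with Tpi1 lacking a match, and 13 of 16 among the others. Of all 27025 genes with a promoter 46.7% held a match, and of the 8019 matched by symbol that were over 3 TPM in either monocyte library 68.6% did. The E-box letters stood in 6 of the 37, Pfkm, Pfkfb3, Ldha, Slc16a1, Hif1a and Bnip3, against 7.94% of all genes. A match is only a run of letters in this window.

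Glucose enters monocytes through facilitative transporters. Slc2a1 encodes GLUT1, the widely expressed glucose transporter induced in activated myeloid cells. It had 1309 reads in the bone marrow library, 17030 in spinal cord monocytes and 14661 in APCs, which correspond to 23.9 (95% Wilson interval 22.6 to 25.2), 371.6 (366 to 377.2) and 303 (298.1 to 307.9) TPM. Its log2 fold change was 4.16 (98% interval 4.06 to 4.26) into the spinal cord, a 17.9-fold difference, and −0.36 from spinal cord monocytes to APCs. By level Slc2a1 ranked 5036, 432 and 471 among the common genes. Endothelial cells of the central nervous system also carry GLUT1, and the sum of the 8 endothelial markers was likewise lowest in bone marrow, at 17.5, 81.8 and 50.8 TPM. Of that sum Flt1 held 7.06, 43.1 and 26.8 TPM, and Pecam1, at 9.66, 13.8 and 8.52 TPM, was lowest in APCs. The part of endothelial cells in the level of Slc2a1 was not tested.

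The other transporters on the list were not called. Slc2a6, a lysosomal hexose transporter of macrophages, was at 58.1, 39.7 and 26.9 TPM, and its log2 fold changes were −0.23 and −0.62. Slc2a3, which encodes the high-affinity transporter GLUT3, was near the filter at 4.70, 2.60 and 3.63 TPM, and its first log2 fold change was 0.22 from reads (−0.11 to 0.55) but −0.63 per effective length, and its second was 0.34 from reads. Of the summed TPM of the 3 transporters, Slc2a1 held 27.6% in the bone marrow library, 89.8% among spinal cord monocytes and 90.8% among APCs. Slc2a6 held 67.0%, 9.59% and 8.07%, so that the leading transporter transcript differed between the bone marrow and the spinal cord libraries.

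**Figure D2:**
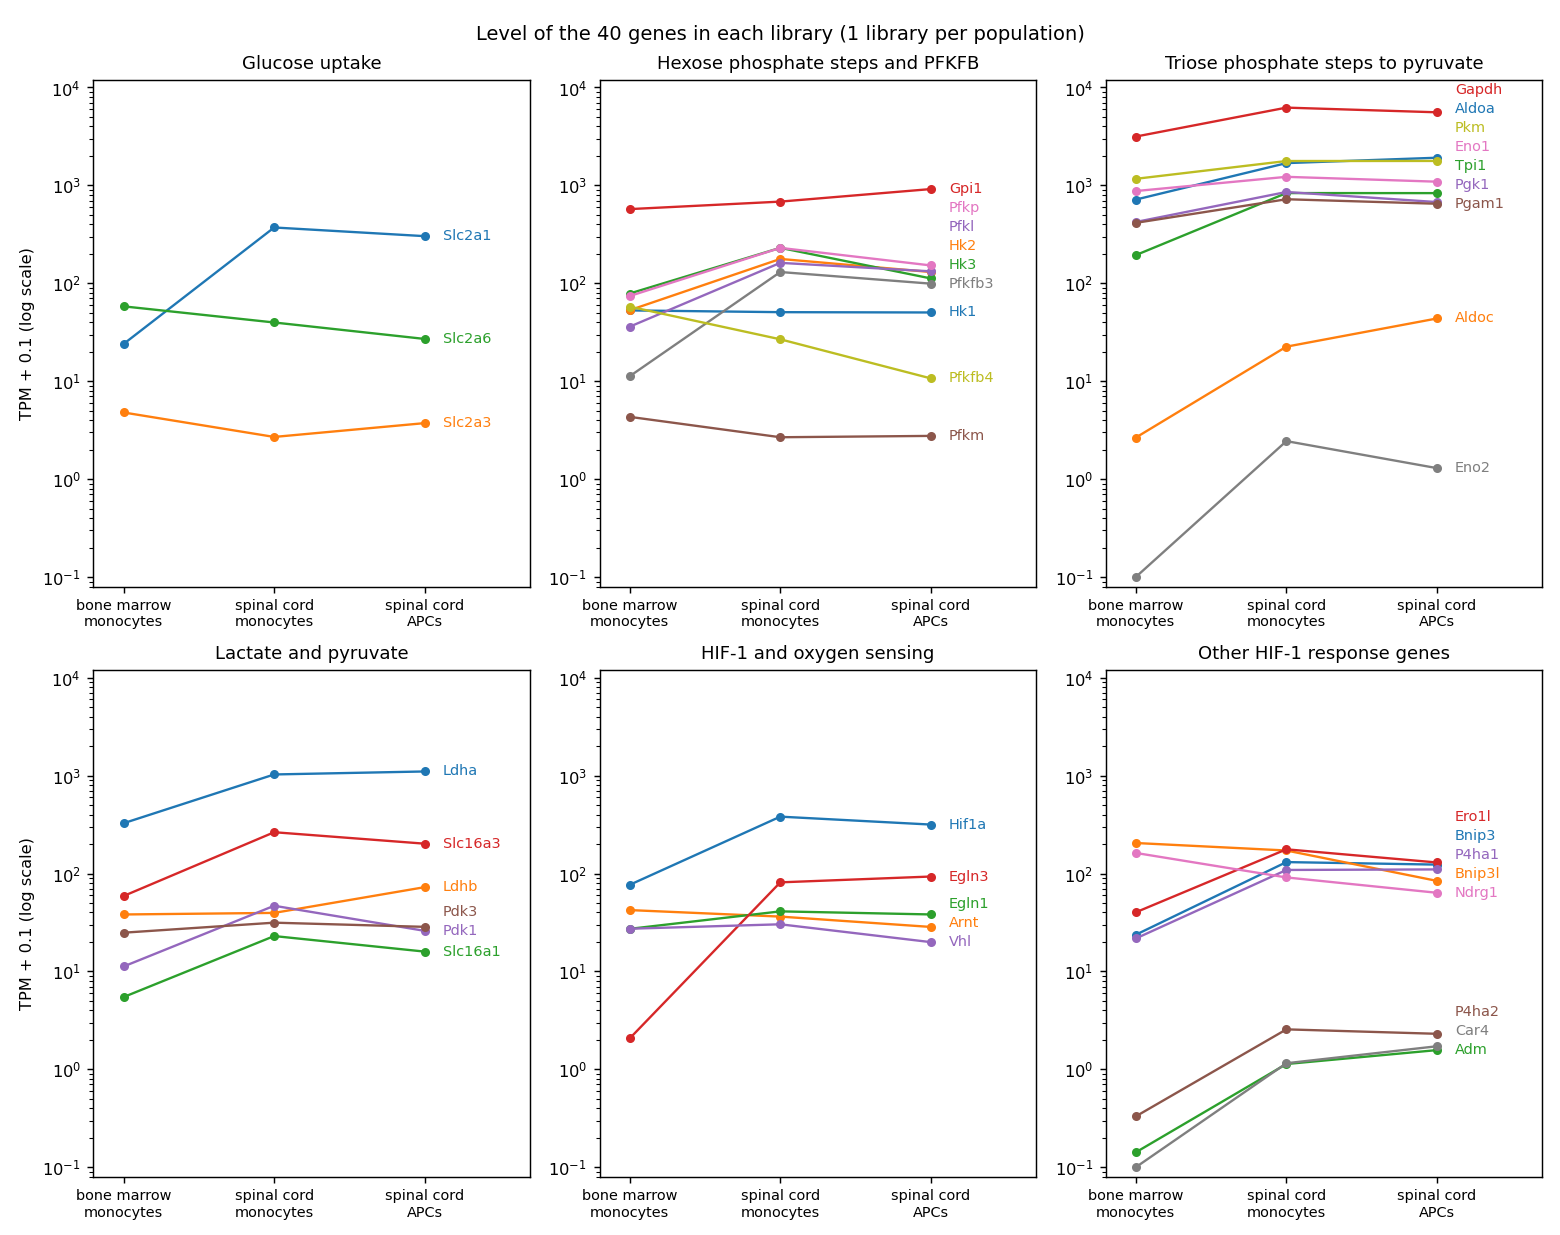
Level of each of the 40 genes as TPM plus 0.1 on a log axis (y) in the 3 libraries (x), in 6 panels by role, with lines joining the values of 1 gene. Among genes called higher, the lines of Slc2a1, Pfkfb3, Aldoc and Egln3 climb most steeply between the monocyte libraries, and most lines are near flat from there to APCs.

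Hexokinases trap glucose by phosphorylation. Hk2, the inducible hexokinase bound to mitochondria, was at 53.0, 177.3 and 130.3 TPM, and its log2 fold changes were 1.97 (1.92 to 2.03) and −0.40. Hk3, the hexokinase typical of myeloid cells, was at 78.6, 230.2 and 112 TPM, with 1.75 (1.69 to 1.81) and −0.99. Hk1, the housekeeping form, was level at 52.8, 50.6 and 50.3 TPM, and its log2 fold changes were 0.32 and −0.03. Hk2 and Hk3 were called higher in spinal cord monocytes and Hk1 was not. The −0.99 of Hk3 (−1.05 to −0.94) was the lowest value of any member in the second comparison and stopped short of a call, because its interval was not wholly beyond 2-fold. The 3 hexokinases together summed to 184.3, 458.1 and 292.6 TPM, and the share of Hk1 was 28.6%, 11.0% and 17.2%.

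Gpi1 converts glucose 6-phosphate to fructose 6-phosphate. It was at 572.5, 682.8 and 917.4 TPM, and its log2 fold changes of 0.46 and 0.18 were not called. The next enzyme, phosphofructokinase, commits the sugar to glycolysis. Its liver-type subunit Pfkl was at 35.9, 161.7 and 132.4 TPM with a first log2 fold change of 2.29 (2.21 to 2.37), and its platelet-type subunit Pfkp at 74.0, 230 and 152.1 TPM with 1.82 (1.76 to 1.89). Both subunits were called higher. The second values were −0.17 for Pfkl and −0.72 for Pfkp. Pfkm, the muscle type, stood near the filter at 4.23, 2.58 and 2.66 TPM, with 236, 130 and 146 reads and log2 fold changes of −0.40 and 0.02. Phosphofructokinase had the lowest summed level of the 11 reactions from glucose to lactate in all 3 libraries, at 114.2, 394.3 and 287.3 TPM.

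The bifunctional PFKFB enzymes set the level of fructose 2,6-bisphosphate, the allosteric activator of phosphofructokinase, and their transcripts changed places between the libraries. Pfkfb3, the isoform with strong kinase activity, had 1012, 8787 and 8749 reads and was at 11.1, 130.3 and 99.1 TPM. Its first log2 fold change was 3.58 (3.47 to 3.69), an 11.9-fold difference, and its second −0.15. Pfkfb4, a relative that also responds to hypoxia in several cell types, had 2446, 970 and 688 reads and was at 57.7, 26.7 and 10.6 TPM. It was the reverse of Pfkfb3, highest in bone marrow monocytes. Its first log2 fold change was −0.87 (−1.0 to −0.75), which was not called. The second was −0.64 from reads and −1.26 (−1.42 to −1.09) per effective length, which made Pfkfb4 the only member called lower on that scale, and the effective lengths of Pfkfb4 in those libraries were 1875 and 3121 bases. Pfkfb3 held 14.7%, 80.3% and 85.3% of the TPM of the family and Pfkfb4 75.9%, 16.5% and 9.10%, with the non-members Pfkfb2 at 1.97 to 7.25% and Pfkfb1 at 1.22 to 2.19%.

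**Figure D3:**
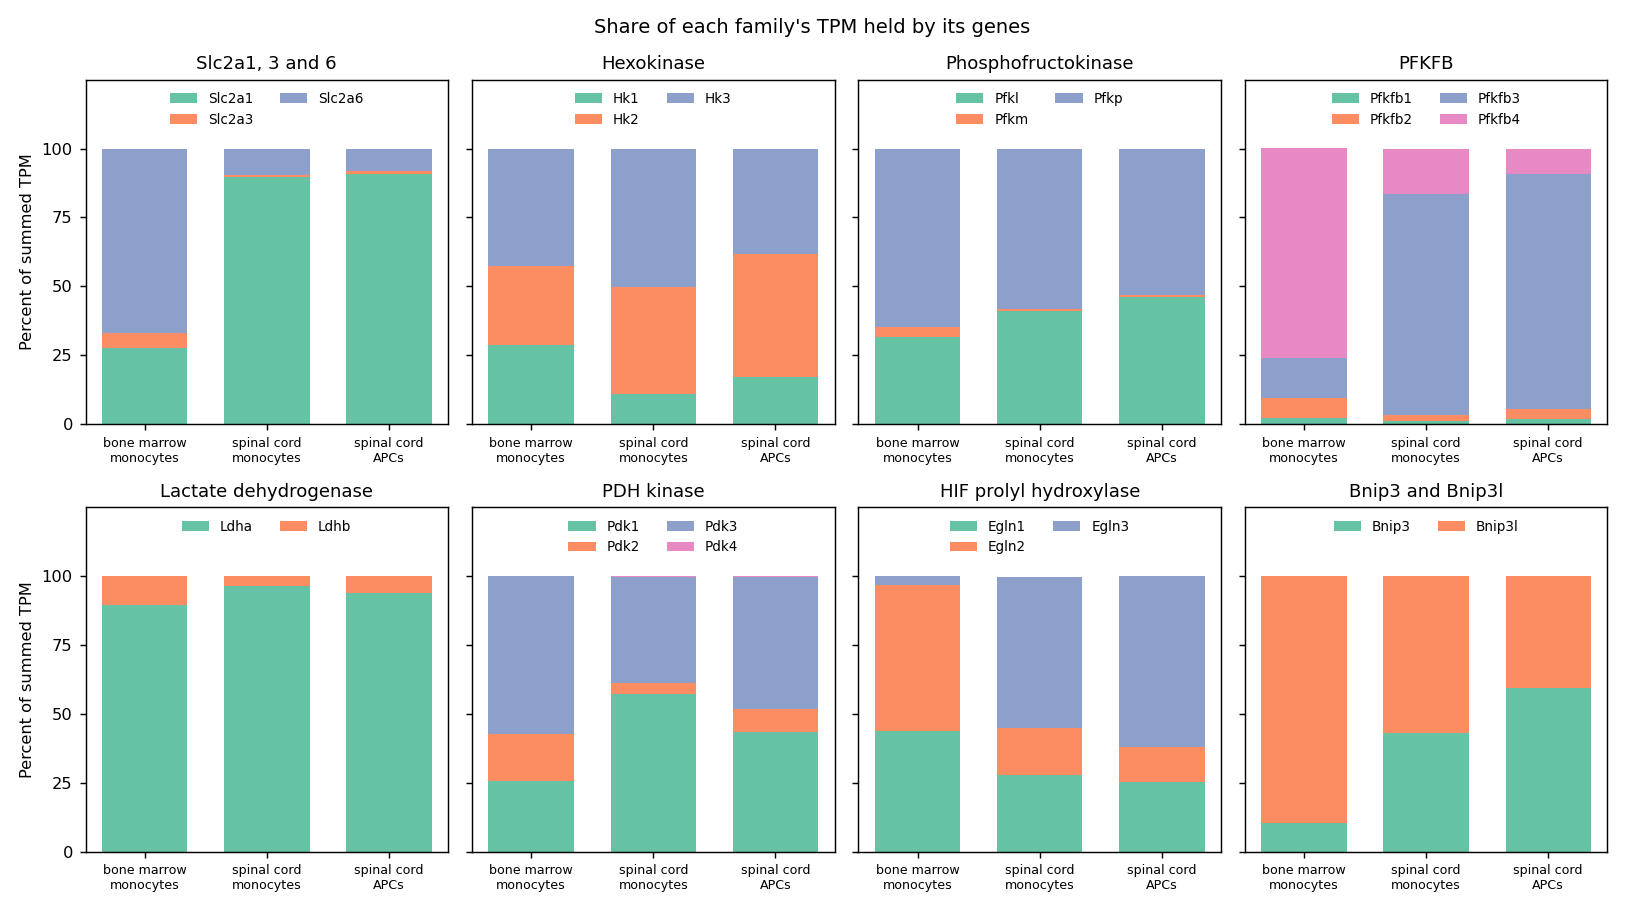
Share in percent (y) of the summed TPM of 8 families of related genes held by each gene in the 3 libraries (x), as stacked bars. Slc2a1, Pfkfb3 and Egln3 hold 3.18 to 27.6% of their families in bone marrow monocytes and 55.1 to 90.8% in the spinal cord libraries.

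From fructose 1,6-bisphosphate to pyruvate, 6 of the 9 genes were called higher in spinal cord monocytes. Aldoa, the main aldolase, had 18592, 37668 and 46281 reads and was at 716.1, 1689 and 1917 TPM, and the log2 fold changes were 1.48 and 0.15. Aldoc, the brain-type aldolase, had 86, 778 and 1636 reads and was at 2.56, 22.4 and 43.7 TPM. Its log2 fold changes were 3.63 (3.26 to 4.02) and 0.92 (0.78 to 1.07), the highest member value in the second comparison. Aldoc is also an astrocyte gene, and the 6 astrocyte markers summed to 18.5 and 19.6 TPM in the spinal cord libraries. Aldoc held at most 2.23% of aldolase TPM, so aldolase transcripts were almost wholly Aldoa in each library.

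Tpi1, which interconverts the triose phosphates, stood out among the single-gene steps. It was at 193.9, 834.7 and 833.8 TPM, and its log2 fold changes were 2.39 (2.34 to 2.44) and −0.01. The summed level of its reaction was 4.30 times as high in spinal cord monocytes, the largest ratio of the 11 reactions, and Gpi1 had the smallest at 1.19. Pgk1, the first ATP-forming enzyme, was at 422.7, 856.4 and 675.5 TPM, with 1.32 and −0.36. Pgam1, which moves the phosphate of phosphoglycerate, was at 414.2, 722 and 649.4 TPM, with 1.11 (1.08 to 1.15) and −0.13. The call of Pgam1 was the closest to the threshold and was lost in 6 of 14 alternatives, among them total reads and reads per effective length.

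Gapdh, the NAD-dependent dehydrogenase that is often used as a reference gene, had the highest level of all members, at 3152, 6229 and 5578 TPM. It ranked 27, 13 and 19 among the common genes by level. Its reads were 49739, 86086 and 135360, and its first log2 fold change was 1.25 (1.23 to 1.27) and was called. The second was 0.51 from reads, −0.08 per effective length and 0.26 with the reads of its annotated copies added, so its direction depended on the scale. The effective length of Gapdh was 739, 713 and 1164 bases across the libraries, and the 202 annotated copies of Gapdh, 196 of them pseudogenes, held reads equal to 20.4%, 19.9% and 0.966% of those of Gapdh. The search also counted the protein-coding gene Peli2 as a copy, with 1538, 1003 and 1074 reads. The shares and the value with copies added therefore include reads of Peli2.

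Eno1, the main enolase, and Pkm, pyruvate kinase of muscle and macrophage type, were at high levels and below a 2-fold difference. Eno1 was at 875.5, 1223 and 1091 TPM, and the log2 fold changes were 0.75 and −0.27. Pkm was at 1167, 1774 and 1777 TPM, with 0.88 and −0.07, and the gene-level values do not separate its spliced M1 and M2 forms. Eno2, the neuronal enolase, had 0, 41 and 53 reads and was under 3 TPM throughout. Set against the limit of 3 reads in bone marrow, Eno2 was 18.8-fold higher in spinal cord monocytes, or 18.2-fold per effective length. These ratios leave out the counting error of the spinal cord reads. The counting interval of the first log2 fold change of Eno2 began at 3.57 from reads and 3.52 per effective length. Its log2 difference between APCs and spinal cord monocytes was 0.22 from reads and −0.88 per effective length. The 5 neuron markers summed to 0.698, 1.64 and 1.96 TPM.

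Summed over the 18 genes of the 11 reactions from hexokinase to lactate dehydrogenase, the level was 8179.5, 15955 and 15238 TPM. Those transcripts made up 0.818%, 1.60% and 1.52% of the total. Without Gapdh the sums were 5027.5, 9726.6 and 9660.1 TPM, ratios of 1.93 and 0.993. Each of the 11 reactions was at a higher summed level in spinal cord than in bone marrow monocytes. By TPM, 7 of the 11 were lower in APCs than in spinal cord monocytes. Among these 7, triose phosphate isomerase was level, at a ratio of 0.999. Gapdh was at 0.896, but its log2 fold change from reads was 0.51. TPM are corrected for effective length, and that of Gapdh differed by over 1.5-fold between the spinal cord libraries. Over all genes examined, the median log2 fold change of TPM plus 1 was −0.1 from spinal cord monocytes to APCs. Between the monocyte libraries the difference was spread along the chain and uneven. The largest ratios were those of triose phosphate isomerase, phosphofructokinase (3.45) and lactate dehydrogenase (2.93), and the smallest those of enolase (1.40) and Gpi1.

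**Figure D4:**
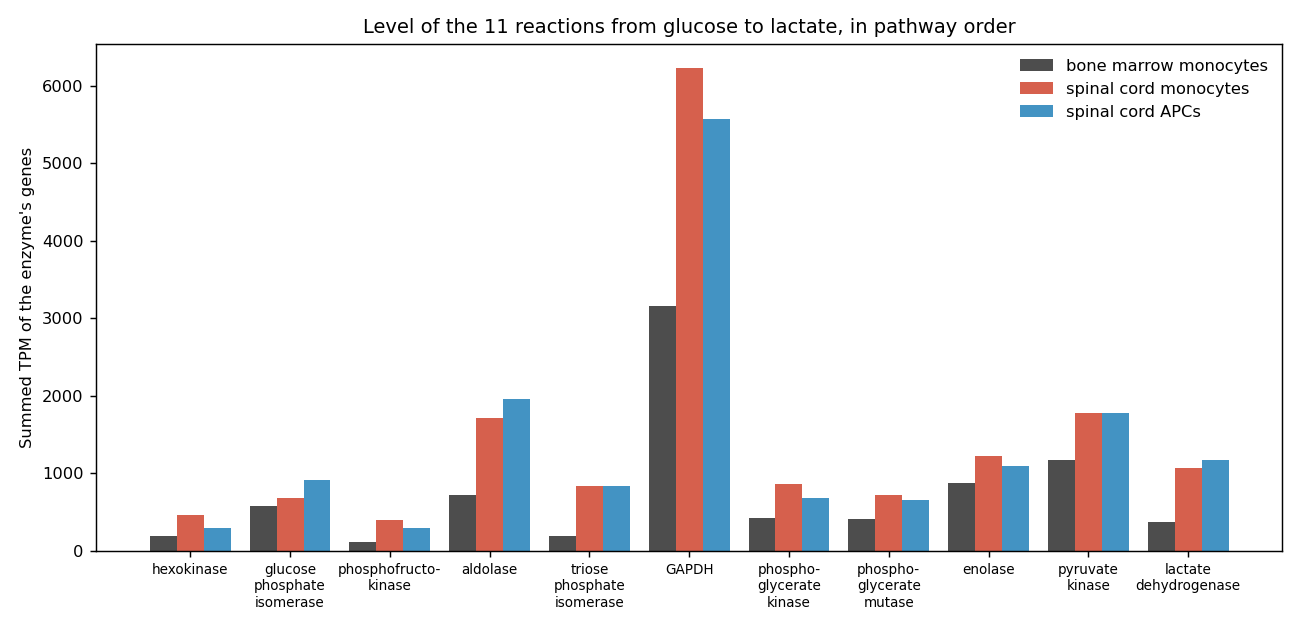
Summed TPM (y, linear from 0) of the genes of each of the 11 reactions from glucose to lactate (x, pathway order) in the 3 libraries. Spinal cord monocytes exceed bone marrow monocytes in all 11 reactions, Gapdh is the highest and phosphofructokinase the lowest.

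Ldha, the lactate dehydrogenase subunit that favours lactate formation, had 9152, 25755 and 26549 reads and was at 326.1, 1027 and 1102 TPM. Its log2 fold changes were 1.95 (1.91 to 1.99) and −0.10, the second being 0.18 per effective length. Ldhb, the heart-type subunit, was at 38.1, 39.5 and 72.5 TPM, with 0.31 and 0.85 (0.70 to 1.0), and was not called. Ldha held 89.6%, 96.3% and 93.8% of the lactate dehydrogenase TPM. Lactate leaves the cell through Slc16a3, which encodes the export-type transporter MCT4, and through Slc16a1, which encodes MCT1. Slc16a3 was at 58.8, 264 and 201.5 TPM, with 2.24 (2.16 to 2.32) and −0.36. Slc16a1 was at 5.37, 22.9 and 15.8 TPM, with 2.40 (2.23 to 2.58) and −0.56. Both exporters were called higher in the first comparison and were not called in the second. Slc16a3 held 71.7%, 89.4% and 90.4% of the TPM of the monocarboxylate transporters examined, while the non-member Slc16a7, which encodes the high-affinity MCT2, held 21.7%, 2.80% and 2.53% and was called lower in the first comparison, at −1.51 on the log2 scale from reads, a call that was lost per effective length (−0.88).

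Pyruvate dehydrogenase kinases keep pyruvate out of the mitochondrial oxidation step. Pdk1, the HIF-1 responsive kinase, had 568, 2134 and 2659 reads and was at 11.1, 46.7 and 25.9 TPM. Its first log2 fold change was 2.37 (2.21 to 2.53). The second was 0.17 from reads and −0.78 per effective length, at effective lengths of 2356 and 4935 bases. Pdk3 was at 24.8, 31.4 and 28.4 TPM, with 0.64 and −0.16, and was not called. Pdk1 held 25.8%, 57.2% and 43.6% of the TPM of these kinases, Pdk3 57.3%, 38.4% and 48.0%, and the non-member Pdk2 16.9%, 3.98% and 8.11%.

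In the oxygen-sensing group Hif1a and Egln3 were called higher, and Arnt, Egln1 and Vhl were not called. Hif1a, which encodes the alpha subunit of HIF-1, had 6926, 29539 and 28579 reads and was at 76.5, 380.8 and 316 TPM. Its log2 fold changes were 2.55 (2.51 to 2.60) and −0.20. Arnt, its partner, was at 42.2, 36.2 and 28.4 TPM, with −0.12 and −0.30. The transcript of the regulated subunit differed 5.86-fold between the monocyte libraries, whereas the interval of Arnt, −0.21 to −0.02, stayed far from a 2-fold change.

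Egln3, which encodes the prolyl hydroxylase PHD3 and is itself a HIF-1 target, had the largest difference of the members called. It had 101, 3750 and 4679 reads and was at 1.97 (1.62 to 2.39), 81.1 (78.6 to 83.8) and 93.1 (90.4 to 95.8) TPM. The log2 fold change into the spinal cord was 5.66 (5.34 to 6.01), a 50.7-fold difference, and the second was 0.17 (0.10 to 0.25). Egln1, which encodes PHD2, the main oxygen sensor, was at 27.1, 41.0 and 38.1 TPM, with 0.91 (0.81 to 1.01) and −0.14. Egln3 held 3.18%, 55.1% and 61.9% of the prolyl hydroxylase TPM, Egln1 43.9%, 27.8% and 25.3%, and the non-member Egln2 52.9%, 17.0% and 12.8%, so the least abundant of these transcripts in bone marrow monocytes was the most abundant in both spinal cord libraries. Vhl, the ubiquitin ligase subunit that recognizes hydroxylated HIF alpha, was at 27.2, 30.2 and 19.8 TPM, with 0.35 and −0.48.

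The remaining 8 members are HIF-1 response genes outside glucose metabolism, and 5 of them passed the filter. Of these 5, 3 were called higher in spinal cord monocytes (60.0%, beside 13.6% of all genes examined). Bnip3, a mitophagy receptor, had 710, 3471 and 3806 reads and was at 23.6, 130.7 and 123.2 TPM, with 2.75 (2.61 to 2.89) and −0.01. P4ha1, a catalytic subunit of the collagen prolyl 4-hydroxylase, was at 21.6, 108.6 and 110 TPM, with 2.63 and −0.01. Ero1l, the endoplasmic reticulum oxidase that RefSeq names Ero1a, was at 40.04, 176.6 and 129.5 TPM, with 1.93 and −0.38. These 3 genes differed 3.81- to 6.72-fold between the monocyte libraries and by under 1.5-fold between the spinal cord libraries.

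Not every HIF-1 response gene was higher in the spinal cord. Ndrg1, a stress-responsive gene widely induced by hypoxia, was at 162.1, 91.1 and 63.5 TPM, with −0.73 (−0.80 to −0.67) and −0.36. Bnip3l, the mitophagy receptor also called NIX, was at 204.8, 171.7 and 83.9 TPM, with a first log2 fold change of −0.60 from reads and −0.03 per effective length. Its second was 0.13 from reads and −0.95 (−1.02 to −0.88) per effective length, and its effective length was 2056, 1294 and 2988 bases. Bnip3l is abundant in red cell precursors, whose markers summed to 0.573, 77.8 and 24.9 TPM. Bnip3 held 10.3%, 43.2% and 59.5% of the TPM of the pair.

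Adm, P4ha2 and Car4 were under 3 TPM in every library. Adm, which encodes the vasodilator adrenomedullin, had 1, 22 and 35 reads, a first log2 ratio of 4.21 with a counting interval of 2.07 to 7.76. P4ha2, the second collagen prolyl 4-hydroxylase subunit, had 9, 90 and 92 reads, with 3.69 (2.66 to 4.96). Car4, a membrane-bound carbonic anhydrase, had 0, 20 and 34 reads. Against the limit of 3 reads in bone marrow, it was 9.17-fold higher in spinal cord monocytes. The ratio was 3.79-fold per effective length, which was 434 bases in bone marrow and 980 in spinal cord monocytes. Both ratios leave out the counting error of the spinal cord reads. The counting interval of the first log2 ratio of Car4 began at 2.49 from reads and 1.21 per effective length. At these depths the second comparison gave intervals that held no change for all 3, −0.38 to 1.44, −0.61 to 0.38 and −0.32 to 1.56.

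**Figure D5:**
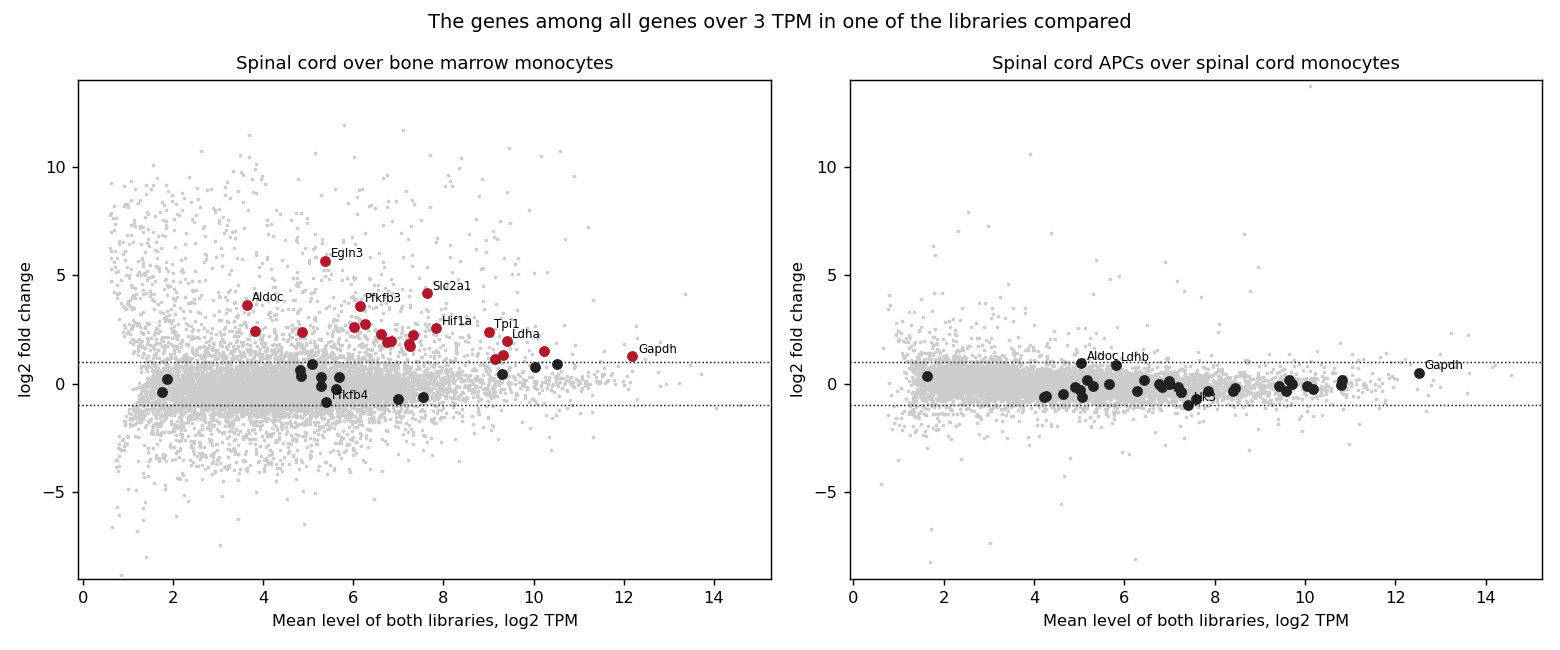
log2 fold change (y) against the mean level of the libraries compared as log2 TPM (x) for all genes over 3 TPM (grey) and the members among them (red, called higher; black, not called), with dotted lines at a 2-fold change. On the left the called members spread over the whole range of levels from Aldoc to Gapdh, and on the right no member is called.

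Of the 21 genes called in the first comparison, 16 (76.2%) lay within 0.5 of no change from spinal cord monocytes to APCs, close to the 76.0% of all genes, and Hk3, Pfkp, Aldoc, Gapdh and Slc16a1 lay outside it. All 21 had more TPM in APCs than in bone marrow monocytes, with log2 fold changes of APCs over bone marrow from 0.77 for Hk3 to 5.85 for Egln3. This last comparison shares both libraries with the others. The 21 genes were also chosen for a lower level in bone marrow than in spinal cord monocytes. Over all 35 members that passed the filter, the 98% interval lay wholly below 0 for 22, wholly above 0 for 9 and held 0 for 4, Hk1, Tpi1, Bnip3 and P4ha1, where over all 9734 genes examined it lay wholly below 0 for 35.7% and wholly above 0 for 29.3%. These intervals narrow with the number of reads and hold no spread between libraries, so they do not by themselves show a difference between the populations. The effective length of 5 members, Pfkfb4, Gapdh, Eno2, Pdk1 and Bnip3l, differed by over 1.5-fold between the spinal cord libraries, as it did for 8.63% of all genes examined.

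Genes of related pathways were read in the same way, in the first comparison. Over all 10072 genes examined there, 13.6% were called higher and 11.0% lower. Of these genes 5921 had negative log2 fold changes, and the median was −0.17. The pentose phosphate pathway branches off at glucose 6-phosphate to yield NADPH and ribose. Of its 9 genes 8 were over 3 TPM, all 8 had negative log2 fold changes with a median of −0.78, 1 was called lower and 0 higher. G6pdx, the entry enzyme of that branch, was the gene called, at 363, 77.5 and 71.9 TPM, a log2 fold change of −1.84. In the list of pyruvate entry into mitochondria 10 of 11 genes passed the filter and 0 were called, with a median of −0.46. Further glycolysis and isozyme genes numbered 22, of which 11 passed, with Bsg, the chaperone of the lactate transporters, called higher (1.10) and Slc16a7 and Emb, its relative, called lower (−1.51 and −1.27), of which only Emb was also called per effective length, where Bsg was at 1.03. Glycogen and gluconeogenesis genes numbered 16, of which 12 passed, with Pgm1 (1.70), Gys1 (1.60) and Ppp1r3d (1.35) called higher and Pygl (−1.12), the liver-type glycogen phosphorylase, called lower.

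Another 40 genes of the HIF-1 pathway were read alongside the members, and 29 of them passed the filter. Among those 16 were called higher in spinal cord monocytes and 0 lower, with a median log2 fold change of 1.22. Over all genes examined 13.6% were called higher and 11.0% lower, with a median of −0.17. The list was also chosen with earlier results known, so its difference from all genes is only a description. Among the 16 genes called in the list were Vegfa (9.34), the vascular growth factor, Ak4 (6.95), Bhlhe40 (6.39), Cox4i2 (4.87) and Ankrd37 (4.17). Of these, Vegfa, Ak4, Cox4i2 and Ankrd37 were under 3 TPM in bone marrow monocytes. They passed the filter only through spinal cord monocytes, so a call could only be higher. Cox4i2 had 1, 35 and 13 reads, so its first log2 ratio has a counting interval of 2.78 to 8.40, and Ak4 had 5 reads in bone marrow monocytes. Vegfa had 54, 25796 and 31412 reads and was at 0.916, 567 and 589 TPM, which put it above Slc2a1 and Hif1a in both spinal cord libraries. In the second comparison 0 genes were called in either direction in each of these 5 lists. Over all 9734 genes examined there, only 1.94% were called higher and 1.66% lower.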

How the data were processed

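RNA of 3 sorted cell populations was sequenced as paired-end reads of 50 bases, from libraries made with 300 ng of input and 11 PCR cycles. The authors quantified transcripts with Salmon (version 0.14.1 in the submitters' processing notes) and deposited for each library a table of genes with estimated counts (reads), TPM and effective length. Their reference was the transcripts of GENCODE M22, per the study's methods, whereas gene positions and copies were taken here from M21. The deposited tables of the monocyte libraries list 54432 genes and that of the APC library 22242, so the 22238 common genes were used, TPM were rescaled over them to a common total, and reads were rounded.

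For each comparison, size factors were medians of ratios over the common genes, and the log2 fold change was the median of a gamma posterior of reads plus 1, after the definition of GFold in the study's methods. A gene was called where percentile 1 or 99 lay beyond a 2-fold change and TPM were over 3 in at least 1 of the libraries. With 1 library per population there is no test of conditions, so edgeR (4.0.16) gave only TMM factors for an alternative. Intervals cover counting error only, since PCR copies are not independent molecules, and the 95% Wilson intervals of TPM are of the share of reads. The procedure was checked on simulated data drawn with counting error only, so the check does not cover spread between libraries. Copies of members were found with BLAST (2.17.0) among GENCODE M21 transcripts, at 90% identity or more over 200 bases or more, and for protein-coding copies over at least 50% of the transcript. Gene names came from a table of identifiers, and promoters from RefSeq.

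The members and the lists were chosen with earlier results of these data known. All 40 members were named. Of other lists, up to 6 called genes with the largest differences were named per comparison, and isozymes holding over 1% of a reaction's TPM. Of the genes so chosen, 1 is not reported here. Promoters were printed for the 4 genes called higher with the largest differences and a match, taking for each gene the promoter with most matches. Alternatives covered scaling, length correction, pseudocounts, bounds, level filters, an assumed spread between libraries and the reads of copies. No column of per-sample values was left out. Calculations ran in R 4.3.3 and Python 3.11.15, with scipy 1.17.1, pandas 2.3.3, numpy 2.4.6 and, for the plots, matplotlib 3.10.9.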

Additional observations from a re-analysis of the deposited data

Results flagged for a closer look

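Reads on annotated copies of Gapdh lay outside the main measurement, and no level in control samples was available for them. The 202 copies, 196 of them pseudogenes, held 10123 reads in bone marrow monocytes and 17118 reads in spinal cord monocytes, above the limit of 3 reads that a count of 0 allows. In the APC table, which lists 6 of these copies, they held 1308 reads, of which 1074 were those of the protein-coding gene Peli2. Peli2 had 1538 and 1003 reads in bone marrow and spinal cord monocytes. All values given here with copies added include the reads of Peli2. With the copies added, Gapdh was at 3661, 7278 and 5599 TPM and its log2 fold changes were 1.25 and 0.26. All copies together, 262 of 12 members, held reads equal to 3.58%, 3.42% and 0.248% of the reads of the members. The part of the transcript sets behind the tables was not tested.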

How the results depend on the processing

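No paired analysis was possible because each population has 1 library, and for the same reason no replicate could be left out. Of 21 members called higher in spinal cord monocytes, 4 were called with an assumed spread between libraries at a coefficient of variation of 0.4, at which 619 of all genes were called higher and 218 lower instead of 1369 and 1104, and 20 with total reads. With 0.2 the calls of Hk3, Pfkp, Aldoa, Pgk1, Pgam1, Gapdh and Ero1l were lost, and 896 and 451 of all genes were called. Slc2a1, Pfkfb3, Aldoc and Egln3 were called in each of 14 alternatives, Pgam1 in 8 and Gapdh in 11. With log2 TPM plus 1 and a plain 2-fold change, 1 member (Pfkfb4) was called lower in the first comparison and 3 (Pfkfb4, Hk3 and Bnip3l) in the second, where reads per effective length gave 1 (Pfkfb4). All genes called lower on that TPM scale were 1890 and 528. The first median of 1.40 was 1.24 with total reads, which moved the median of all genes from −0.17 to −0.33, 1.13 with TPM plus 1, 1.79 without a level filter and 1.18 with all genes of the monocyte tables, and the second was −0.27 with TPM plus 1. The log2 fold change of Bnip3l in the second comparison was −1.02 with TPM plus 1, opposite to that from reads. Without a level filter 2591 of all genes were called higher in the first comparison, and 389 and 288 in the second. In the second comparison 331 higher and 293 lower were called with a plain 2-fold change, 84 and 35 with an assumed spread of 0.2, and 42 and 14 with 0.4. The summed level of the 11 reactions was 6947.4 and 13610 TPM in bone marrow and spinal cord monocytes as deposited, 8692.2 and 17006 TPM with copies added, and 10223, 19768 and 20481 TPM in the 3 libraries without ribosomal protein, mitochondrial and Gm genes. Apart from the settings' own construction, the cause of these changes was not tested. Depth limits Eno2, Adm, P4ha2 and Car4, with 0 to 9 reads in bone marrow monocytes.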
